A study of Mus musculus with 12 samples.

Results

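The genes of lipid droplet coating and droplet lipolysis were followed in the livers of Apoe knockout mice that had received Rspo2 through an AAV (adeno-associated virus) vector. The set held 10 genes chosen by symbol out of 54532 rows of the expression table: the perilipins Plin2, Plin3, Plin4 and Plin5, the Cide genes Cidea, Cideb and Cidec, the lipase gene Pnpla2 with its inhibitor gene G0s2, and the droplet enzyme gene Hsd17b13. All 10 were found, and 9 passed the filter on low values (a mean of at least 0.5 FPKM over the 12 libraries), with Cidea under it. There were 6 Rspo2-AAV libraries (numbered 1, 2, 4, 5, 6 and 7) and 6 Control libraries (numbered 1 to 6) from mice given a Gfp vector. Every library came from bulk liver RNA of mice with the Apoe knockout, so the groups share that background and no group with an intact Apoe gene stands beside them. Apoe RNA was still read at 43.1 to 101 FPKM in Rspo2-AAV and 38.8 to 149 in Control libraries. The knockout is therefore as the sources give it and was not read from the RNA. Age, diet, vector dose, promoter and the time after injection are not given in the sources used here. Nothing in the labels says that the samples are different animals, and the p-values therefore speak only of the spread among samples, which may be technical. The title of the series sets the question, which is how R-spondin 2, a secreted enhancer of Wnt signals, bears on liver fat.

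Hepatocytes store triglyceride in droplets whose surface is coated by perilipins, which limit the access of lipases to the core. Cide proteins move lipid between droplets that touch, so that one droplet grows at the expense of the other, and in the liver Cideb also serves the lipid loading of secreted lipoproteins. Breakdown starts with the triglyceride lipase ATGL, the product of Pnpla2, which the small protein G0s2 inhibits and the cofactor Abhd5 activates. Hsd17b13 is a droplet-bound enzyme found mainly in hepatocytes.

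Values are FPKM, read fragments scaled for gene length and library size, so levels of different genes can be set side by side. Recovered depth was 14295644 to 22195576 reads per library. The library size behind the FPKM was 1.14 times the recovered reads in Rspo2-AAV 1 and 0.863 times in Rspo2-AAV 2. In the other libraries it was 0.927 to 1.07 times, so FPKM are not scaled by the read total alone. Rspo2 stood at 122 and 49.9 FPKM in Rspo2-AAV 1 and 2 and at 386, 573, 461 and 265 FPKM in Rspo2-AAV 4, 5, 6 and 7. In each Control library it was at 0 reads. Some libraries stood apart in other measures. Xist RNA, made by an inactive X chromosome, reached 28.0 FPKM in Rspo2-AAV 1, 5.57 in Rspo2-AAV 2 and 42.0 in Control 3, and under 1 in the other 9 libraries. Rspo2-AAV 2 also had 10.5% mitochondrial reads, against 3.53% to 5.89% in the others, and pancreatic acinar markers made up 4.38% of the reads of Rspo2-AAV 4 and 0.392% of those of Rspo2-AAV 5. The libraries were further read in 2 number sets, 1 to 3 (2 Rspo2-AAV, 3 Control) and 4 to 7 (4 Rspo2-AAV, 3 Control), a division that came from earlier results of these data and that no label names as a batch. Of 5 measured hepatocyte markers 0 were called (summed 17704 to 39660.0 FPKM in Rspo2-AAV and 21989 to 44826 in Control libraries), so the defining markers of the labelled tissue were high in each library.

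Hsd17b13 was the one gene of the set that changed by the test over all 12 libraries, and it fell. The test was limma on log2(FPKM + 0.5) with Benjamini-Hochberg adjustment over 13447 genes and a threshold of 0.05 on the adjusted p. Each adjusted p below comes from this fit over all 12 libraries unless a subset, an interaction or another fit is named. Of the 9 tested genes of the set, 0 were higher and 1 was lower, against 5.20% of all tested genes called (2.55% higher and 2.65% lower). At an unadjusted p under 0.05 there were 4 of the 9, namely Hsd17b13, Cidec, Plin2 and Plin5, beside 2891 of all 13447 genes tested. Hsd17b13 was also the one gene of the set whose groups did not overlap, which held for 3.24% of all tested genes.

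**Figure D1:**
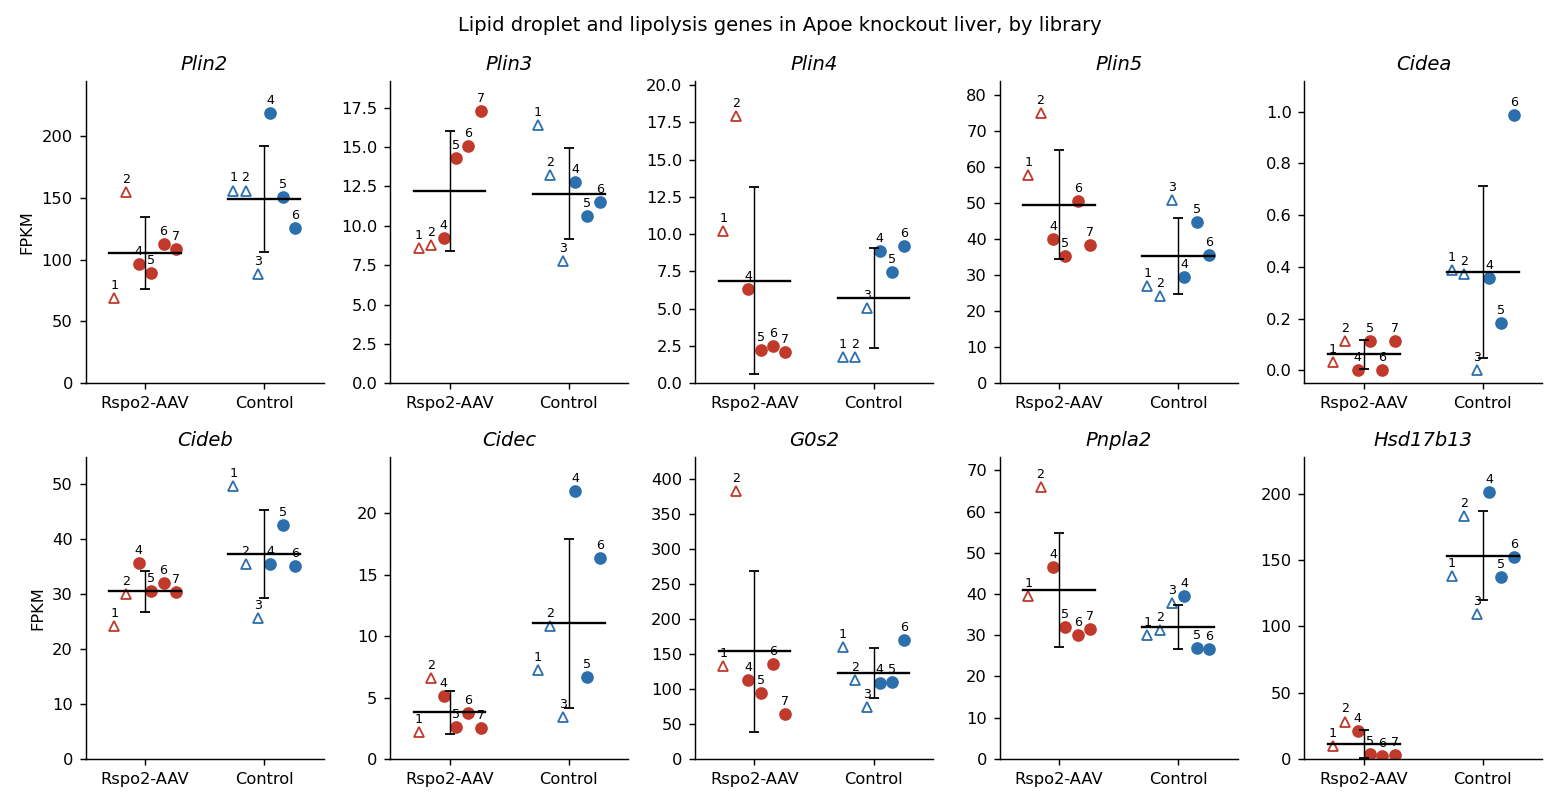
FPKM of the 10 genes in each library, with Rspo2-AAV libraries in red and Control libraries in blue. Open triangles are libraries numbered 1 to 3, filled circles those numbered 4 to 7, small digits the library numbers, long bars the group means and whiskers the SD (n = 6 each). Hsd17b13 is the gene whose Rspo2-AAV values (at most 28.2 FPKM) all lie below its Control values (at least 109 FPKM).

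Promoter sequences of the genes that the results turn on are shown so that they can be read beside the expression values: Hsd17b13, which fell, Plin2 and Cidec, which were lower in part of the libraries, and Plin4, whose direction turned with the library numbers. They come from RefSeq (GRCm38.p6), written 5′ to 3′ on the gene's strand, as 300 bases with 250 before and 50 after the annotated start. The table held a promoter for 9 of the 10 genes, 11 starts in all. Capitals mark matches to 1 of 5 motifs on either strand: AGGTCA (the nuclear receptor half-site, TGACCT on the other strand), its direct repeat (2 half-sites on 1 strand with 1 base between them), the TCF/LEF motif CTTTGAT, the E-box CACGTG and the TATA motif TATAAA. A direct repeat also counts as a half-site.
Hsd17b13 (chr5:103977339-103977638, minus strand): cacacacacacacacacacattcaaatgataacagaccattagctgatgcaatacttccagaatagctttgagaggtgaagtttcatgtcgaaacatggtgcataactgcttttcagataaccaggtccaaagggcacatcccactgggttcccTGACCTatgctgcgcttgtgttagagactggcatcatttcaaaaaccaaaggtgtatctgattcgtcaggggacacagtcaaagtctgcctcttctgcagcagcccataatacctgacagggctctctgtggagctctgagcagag
Plin2 (chr4:86670010-86670309, minus strand): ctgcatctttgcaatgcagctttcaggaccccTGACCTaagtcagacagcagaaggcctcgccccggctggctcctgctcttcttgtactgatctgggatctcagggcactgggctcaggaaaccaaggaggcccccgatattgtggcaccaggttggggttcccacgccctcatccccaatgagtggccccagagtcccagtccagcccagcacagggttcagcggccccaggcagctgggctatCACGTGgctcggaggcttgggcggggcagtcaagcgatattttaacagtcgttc
Cidec, first start (chr6:113435711-113436010, minus strand): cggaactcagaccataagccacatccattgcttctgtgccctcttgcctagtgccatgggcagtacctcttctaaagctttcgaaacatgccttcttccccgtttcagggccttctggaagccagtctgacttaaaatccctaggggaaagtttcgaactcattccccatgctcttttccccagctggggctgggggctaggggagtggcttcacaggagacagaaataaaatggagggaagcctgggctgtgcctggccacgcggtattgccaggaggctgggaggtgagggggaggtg
Plin4 (chr17:56109733-56110032, minus strand): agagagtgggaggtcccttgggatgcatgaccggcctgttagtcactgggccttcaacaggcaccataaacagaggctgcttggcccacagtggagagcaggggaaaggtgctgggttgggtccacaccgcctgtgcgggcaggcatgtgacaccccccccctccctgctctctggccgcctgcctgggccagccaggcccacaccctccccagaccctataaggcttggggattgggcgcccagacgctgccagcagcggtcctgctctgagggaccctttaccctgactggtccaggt
The Hsd17b13 window held 1 half-site, with its first base at -96 from the start, and the Plin2 window a half-site at -218 and an E-box at -4. The windows of Cidec (both starts) and Plin4 held none of these letters, nor did those of Plin3, G0s2 and Pnpla2. Plin5 had a half-site in both of its windows, and Cideb had a TATA match at -172. Over 32851 mouse promoters of the same length, 16.3% held the half-site, 0.0396% the direct repeat, 3.73% the TCF/LEF motif, 7.15% the E-box and 13.6% the TATA motif. No window of the set held the TCF/LEF motif or the direct repeat. Such matches describe the letters only.

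Hsd17b13 (ENSMUSG00000034528, GRCm38 chr5:103955440-103977410, minus strand, protein coding) stood at 9.74, 28.2, 20.9, 3.84, 2.23 and 2.70 FPKM in Rspo2-AAV 1, 2, 4, 5, 6 and 7, against 138, 183, 109, 201, 137 and 152 FPKM in Control 1 to 6. Every Rspo2-AAV library lay under every Control library, and the values in Rspo2-AAV 5, 6 and 7 were the lowest. The mean was 11.3 ± 10.9 FPKM in Rspo2-AAV and 153 ± 33.6 in Control libraries (SD, n = 6 each), so the Control mean was 13.6 times the Rspo2-AAV mean. The log2 change was -4.26 ± 0.54 (SE; 95% interval -5.42 to -3.10; adjusted p = 0.00156), the 7th lowest of the 13447 genes tested. The spread within the Rspo2-AAV group was wide: its highest value was 12.7 times its lowest, against 1.85 times in the Control group. Leaving out each library in turn kept the call in all 12 fits (log2 changes -4.63 to -3.95). It also held within numbers 4 to 7 (-4.92 ± 0.67, adjusted p = 0.00569) and among the 9 libraries with Xist under 1 FPKM (-4.91 ± 0.52, adjusted p = 0.000444). Those 9 hold every library numbered 4 to 7, so these fits are not separate tests. Within numbers 1 to 3 the log2 change was -3.04 ± 0.50 with groups apart, but 0 of all 13447 genes were called there by limma, where 955 had an unadjusted p under 0.05. Hsd17b13 was thus apart in both number sets in the same direction, as were 6.11% of all tested genes. The difference between the sets did not pass (interaction -1.89 ± 0.97, adjusted p = 0.494). In bulk liver, fewer cells that express a gene and less RNA per cell cannot be told apart.

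FPKM is a per-length scale, and the order of levels in the set differed between the groups. In Rspo2-AAV livers the mean Hsd17b13 level of 11.3 FPKM stood beside 105 for Plin2 and 154 for G0s2. In Control livers its mean level of 153 FPKM stood beside 149 for Plin2 and 122 for G0s2. Its close relative and chromosomal neighbour Hsd17b11, another droplet-bound enzyme whose gene lies 12.4 kb away, was at 51.8 ± 18.8 FPKM in Rspo2-AAV and 65.9 ± 8.44 in Control livers (log2 change -0.41 ± 0.20, adjusted p = 0.265). Hsd17b11 ranged from 71.7 to 79.7 FPKM in Rspo2-AAV 1 and 2 and from 35.3 to 44.0 in Rspo2-AAV 4 to 7, against 52.5 to 73.6 in Control 1 to 3 and 61.7 to 71.7 in Control 4 to 6. It was lower in Rspo2-AAV libraries within numbers 4 to 7 (-0.71 ± 0.10, adjusted p = 0.00577).

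Plin2 was the most abundant perilipin in both groups, and its lower mean in Rspo2-AAV livers did not pass the test over all 12 libraries. Plin2 encodes the main coat protein of hepatocyte droplets, a protein that is degraded when it is not bound to lipid. Plin2 (ENSMUSG00000028494, chr4:86648386-86670060, minus strand) stood at 68.6, 155, 96.6, 89.0, 113 and 109 FPKM in Rspo2-AAV 1, 2, 4, 5, 6 and 7, against 156, 156, 88.2, 219, 151 and 126 FPKM in Control 1 to 6. The groups overlapped through Rspo2-AAV 2, which was near the Control median, and Control 3, which was near the low Rspo2-AAV values. Both are among the 3 libraries with Xist above 1 FPKM. The mean was 105 ± 29.0 FPKM in Rspo2-AAV and 149 ± 43.1 in Control livers (SD, n = 6 each), with a log2 change of -0.50 ± 0.22 (95% interval -0.98 to -0.02; adjusted p = 0.219). Among the 9 libraries with Xist under 1 FPKM, Plin2 was lower (-0.64 ± 0.16, adjusted p = 0.0252), and within numbers 4 to 7 the groups were apart without a call (-0.66 ± 0.19, adjusted p = 0.0571). That set of 9, cut by Xist read in these same libraries, leaves out Rspo2-AAV 2 and Control 3, through which the groups overlapped. It includes Control 1 and 2 while its Rspo2-AAV libraries all carry numbers above 3. With each library left out in turn from all 12, limma called Plin2 in 0 of 12 fits (adjusted p 0.0820 to 0.383). Within those 9 libraries the part of the number set was not tested. Over all 12 libraries, a term for the number set left Plin2 uncalled by limma (-0.52 ± 0.23, adjusted p = 0.185). Its interaction of vector and number set did not pass (-0.34 ± 0.47, adjusted p = 0.838). Plin2 is also expressed by macrophages and stellate cells, whose markers moved with the groups. Of 6 Kupffer cell and macrophage markers 3 were lower (summed 64.4 to 152 FPKM in Rspo2-AAV and 163 to 346 in Control livers), and of 6 stellate cell markers 4 were lower (30.0 to 50.2 in Rspo2-AAV and 64.3 to 82.7 in Control livers). None of these markers was at 0 in all libraries, and their part in the Plin2 values was not tested.

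Plin5, the perilipin of oxidative tissues that docks ATGL and its cofactor and brings droplets to mitochondria, had a higher mean in Rspo2-AAV livers without passing the test. Plin5 (ENSMUSG00000011305, chr17:56111601-56117596, minus strand) stood at 57.8, 75.1, 40.0, 35.4, 50.5 and 38.3 FPKM in Rspo2-AAV 1, 2, 4, 5, 6 and 7, against 27.1, 24.3, 50.8, 29.6, 44.6 and 35.5 FPKM in Control 1 to 6. The groups overlapped, and Rspo2-AAV 1 and 2 were the highest libraries of the study. The mean was 49.5 ± 15.1 FPKM in Rspo2-AAV and 35.3 ± 10.5 in Control livers (log2 change 0.48 ± 0.22, 95% interval 0.01 to 0.96, adjusted p = 0.228). The log2 change was 1.02 ± 0.37 within numbers 1 to 3, where the groups were apart, and 0.17 ± 0.17 within numbers 4 to 7, where they overlapped. Plin3, a perilipin that is soluble in the cytosol and moves onto small new droplets, was at 8.56 to 17.3 FPKM in Rspo2-AAV and 7.79 to 16.4 in Control livers. Its log2 change was -0.01 ± 0.21, and the 95% interval of -0.46 to 0.45 bounds what 6 libraries per group could show.

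Plin4 had opposite directions in the number sets. Plin4 encodes a perilipin with a long repeat of amphipathic helices that is best known from fat and muscle. Plin4 (ENSMUSG00000002831, chr17:56100591-56109803, minus strand) stood at 10.2, 17.9, 6.30, 2.22, 2.50 and 2.07 FPKM in Rspo2-AAV 1, 2, 4, 5, 6 and 7, against 1.78, 1.77, 5.07, 8.88, 7.49 and 9.21 FPKM in Control 1 to 6. In numbers 1 to 3 both Rspo2-AAV values lay above all Control values, and in numbers 4 to 7 all 4 Rspo2-AAV values lay below all Control values. That pattern, groups apart in both sets with opposite signs, held for 126 genes or 0.937% of those tested. The log2 change was 0.07 ± 0.55 over all libraries (95% interval -1.13 to 1.27; adjusted p = 0.959), 2.19 ± 0.50 within numbers 1 to 3 (adjusted p = 0.388) and -1.38 ± 0.33 within numbers 4 to 7 (adjusted p = 0.0350). The interaction of vector and number set was -3.57 ± 0.61 (adjusted p = 0.0473), with 0.245% of all genes called and Plin4 alone among the 9 tested genes of the set. This call is weak: leaving out each library in turn kept it in 3 of 12 fits (adjusted p 0.00830 to 0.194) and was lost with limma-voom on recovered reads (adjusted p = 0.0680). Since the number sets were drawn from these data and 1 arm has only 2 libraries, 1 of them Rspo2-AAV 2, the interaction is no independent test of the division. Those 2 libraries also had Xist above 1 FPKM, as only Control 3 had among the Control libraries, and the lowest Rspo2 of their group. Number set, Xist and Rspo2 level thus cannot be told apart in the interaction. White adipocyte markers were low and had 0 calls, with Adipoq at most 0.704 FPKM in Rspo2-AAV and 0.119 in Control livers and Lep at most 0.0980 FPKM in Rspo2-AAV and at 0 in all Control livers. Their sum was 3.08 to 31.5 FPKM in Rspo2-AAV and 3.93 to 81.1 in Control livers. Cfd made up most of its upper end, at 0 to 27.0 FPKM in Rspo2-AAV and 0.831 to 77.9 in Control livers, and without Cfd the sum reached 4.43 in Rspo2-AAV and 3.90 in Control livers.

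Plin4 and Plin5 are neighbours on chromosome 17, 1.8 kb apart on the same strand, and Plin3 lies 160 kb beyond Plin5. In numbers 1 to 3 and 4 to 7 the means of Plin4 were 14.0 and 3.27 FPKM in Rspo2-AAV livers and 2.87 and 8.52 in Control livers. Those of Plin5 were 66.4 and 41.1 FPKM in Rspo2-AAV livers and 34.1 and 36.6 in Control livers. Rspo2-AAV 1 and 2 thus had the highest levels of both genes, while the Control libraries numbered 4 to 6 were higher than 1 to 3 in Plin4 with overlapping values of Plin5. Plin4 shares 17 exonic bases (0.294% of its length) with Hdgfl2 on the other strand.

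**Figure D2:**
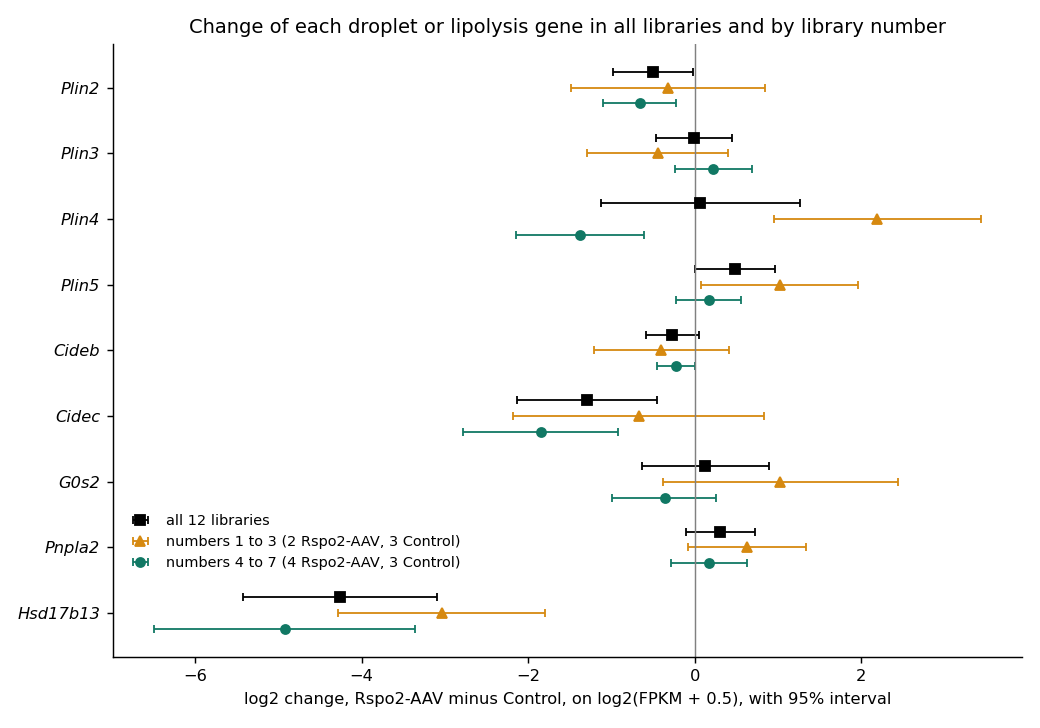
Log2 change of the 9 tested genes, Rspo2-AAV minus Control, with 95% intervals, over all 12 libraries (black squares), numbers 1 to 3 (orange triangles) and numbers 4 to 7 (green circles). The Hsd17b13 values are below 0 in all 3 fits, whereas Plin4 is at 2.19 in numbers 1 to 3 and at -1.38 in numbers 4 to 7.

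The makeup of the perilipin transcripts differed in its means while the groups overlapped. Plin2 made up 60.3% ± 6.63 of the summed Plin2 to Plin5 FPKM in Rspo2-AAV livers and 72.7% ± 8.64 in Control livers (SD, n = 6 each). The Plin2 share ran from 47.2% to 65.5% over Rspo2-AAV and from 58.1% to 81.1% over Control libraries. Plin5 made up 28.6% ± 5.94 in Rspo2-AAV and 18.4% ± 8.35 in Control livers. The lowest Control share of Plin2, 58.1% in Control 3, was the one Control value inside the Rspo2-AAV range. The ratio of Plin2 to Plin5 was 2.21 ± 0.569 in Rspo2-AAV and 4.71 ± 2.15 in Control livers. The perilipin sum was 174 ± 43.1 FPKM in Rspo2-AAV and 202 ± 39.5 in Control livers. These shares are descriptions of values above and were not tested.

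**Figure D3:**
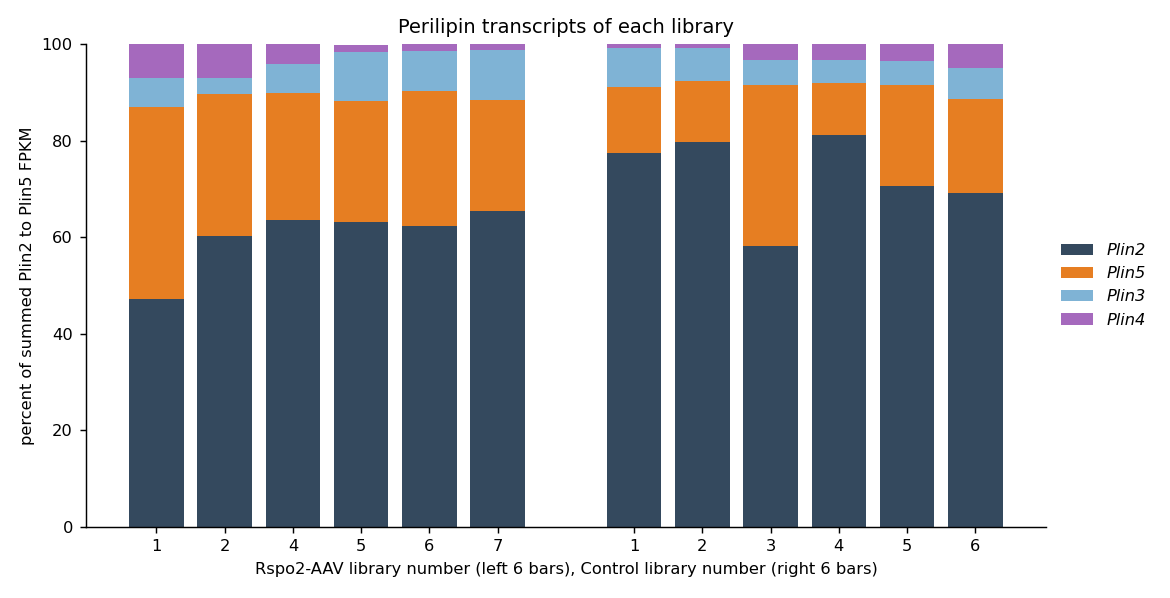
Share of each perilipin in the summed Plin2, Plin3, Plin4 and Plin5 FPKM of each library, in percent, with Rspo2-AAV libraries on the left and Control libraries on the right. Plin2 takes at most 65.5% in Rspo2-AAV libraries and over that in each Control library except Control 3 (58.1%).

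Cidec was lower in part of the libraries and narrowly missed the threshold over all of them. Cidec encodes FSP27, the protein at droplet contact sites that drives the growth of large droplets and that rises in fatty livers. Cidec (ENSMUSG00000030278, chr6:113424634-113435760, minus strand) stood at 2.20, 6.59, 5.10, 2.59, 3.77 and 2.52 FPKM in Rspo2-AAV 1, 2, 4, 5, 6 and 7, against 7.23, 10.8, 3.39, 21.8, 6.68 and 16.4 FPKM in Control 1 to 6. Apart from Control 3, every Control library lay above every Rspo2-AAV library. The mean was 3.80 ± 1.74 FPKM in Rspo2-AAV and 11.0 ± 6.87 in Control livers, resting on 70 to 188 recovered reads per Rspo2-AAV and 115 to 781 per Control library. The log2 change was -1.29 ± 0.39 (95% interval -2.13 to -0.45; unadjusted p = 0.00549; adjusted p = 0.0764). It passed without Control 3 (-1.56, adjusted p = 0.0178) and without Rspo2-AAV 2 (-1.45, adjusted p = 0.0482), the 2 of 12 fits with a library left out that called it (adjusted p up to 0.154), and not without both Rspo2-AAV 4 and 5 (adjusted p = 0.177). It also passed within numbers 4 to 7 (-1.85 ± 0.40, adjusted p = 0.0256). The 9 libraries with Xist under 1 FPKM, which hold every library numbered 4 to 7, also called it (-1.62 ± 0.35, adjusted p = 0.0150). Within numbers 1 to 3 it was -0.67 ± 0.60, and the difference between the sets did not pass (interaction -1.18 ± 0.74, adjusted p = 0.582).

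Cidea, the family member known from brown fat and from strongly fatty livers, was barely detected. It had 1, 2, 0, 2, 0 and 2 reads in Rspo2-AAV 1, 2, 4, 5, 6 and 7, against 6, 8, 0, 8, 3 and 22 reads in Control 1 to 6. The sums were 7 reads over the Rspo2-AAV and 47 over the Control libraries, and Control 3 again lay with the Rspo2-AAV values. On log2(FPKM + 0.5) the difference of means was -0.58, with an exact two-sided permutation p of 0.0216 over 924 splits, unadjusted for the other genes of the set. Without the filter on low values limma gave an adjusted p of 0.220. The 4 brown adipocyte markers (Cidea itself, Ucp1, Elovl3 and Dio2) had 0 calls and summed to 0.326 to 213 FPKM in Rspo2-AAV and 7.92 to 258 in Control livers, nearly all of the highest sums being Elovl3, a fatty acid elongase that hepatocytes also express. Ucp1, the defining marker of brown fat, was at most 0.123 FPKM in Rspo2-AAV and 0.0335 in Control livers. Recovered reads carry no molecular identifiers, so such counts cover counting error only. Cideb, the hepatocyte member, was at 24.2 to 35.7 FPKM in Rspo2-AAV and 25.7 to 49.6 in Control livers, with medians of 30.5 in Rspo2-AAV and 35.5 in Control livers. The groups overlapped, and the log2 change of -0.27 ± 0.15 did not pass (adjusted p = 0.321). Of the Cideb length 76.3% overlaps exons of Nop9 on the other strand, and since the strand setting of the counting is unknown here, the Cideb values are uncertain. Nop9 itself was at 7.13 FPKM in Rspo2-AAV and 6.73 in Control livers. Cidec made up 10.8% ± 3.99 of the summed Cide FPKM in Rspo2-AAV and 21.7% ± 11.0 in Control livers.

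Neither the lipase gene nor its inhibitor gene passed the test. Pnpla2 (ENSMUSG00000025509, chr7:141455198-141460743, plus strand) stood at 39.6, 65.9, 46.6, 31.9, 30.0 and 31.4 FPKM in Rspo2-AAV 1, 2, 4, 5, 6 and 7, against 30.1, 31.2, 37.7, 39.5, 27.0 and 26.6 FPKM in Control 1 to 6. The groups overlapped, with Rspo2-AAV 2 the highest library. The mean was 40.9 ± 13.8 FPKM in Rspo2-AAV and 32.0 ± 5.45 in Control livers, and the log2 change was 0.31 ± 0.19 (95% interval -0.10 to 0.72; adjusted p = 0.386). G0s2 (ENSMUSG00000009633, chr1:193272161-193273217, minus strand, within the span of Lamb3 without shared exons) stood at 133, 382, 113, 94.1, 135 and 64.6 FPKM in Rspo2-AAV 1, 2, 4, 5, 6 and 7, against 159.8, 113, 74.0, 109, 109.6 and 169 FPKM in Control 1 to 6. One library, Rspo2-AAV 2, lay far above all others. The log2 change was 0.13 ± 0.35 (95% interval -0.63 to 0.89; adjusted p = 0.874), and without that library it was -0.18. The ratio of G0s2 to Pnpla2 was 3.51 ± 1.40 in Rspo2-AAV and 4.01 ± 1.62 in Control livers, running from 2.06 to 5.80 over Rspo2-AAV and from 1.96 to 6.36 over Control libraries. The ranges nearly coincide, and Rspo2-AAV 2, high in both genes, kept a ratio within the Control range.

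Read by number set, 3 of the 9 tested genes were lower within numbers 4 to 7 (Hsd17b13, Cidec and Plin4) and 0 were higher, against 13.3% of all genes called there and 6.92% lower. Groups were apart there for Hsd17b13, Cidec, Plin4 and Plin2, beside 28.9% of all genes. Within numbers 1 to 3 they were apart for Hsd17b13, Plin4, Plin5 and Pnpla2, beside 22.7% of all genes. Among the 9 libraries with Xist under 1 FPKM, 3 were lower (Hsd17b13, Cidec and Plin2) and 0 higher, against 12.8% of all genes called and 6.75% lower. Over these 3 readings Hsd17b13 was called in 2, and its log2 change was negative in each. The 9 libraries with Xist under 1 FPKM are those numbered 4 to 7 plus Control 1 and 2, so the 2 calls are not separate. Rspo2 itself was lower in Rspo2-AAV 1 and 2 (122 and 49.9 FPKM) than in Rspo2-AAV 4 to 7 (265 to 573 FPKM). With a term for the number set over all 12 libraries, 871 of 13447 genes were called by limma. Of the set, Hsd17b13 alone was called (-4.15 ± 0.53, adjusted p = 0.00176), and Cidec was not (-1.37 ± 0.39, adjusted p = 0.0581). The parts that the Rspo2 level, Xist and the mixture of cell types have in these differences were not tested. For the number set, only that term and the interactions were fitted.

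The wider pathway was read from 3 lists of other genes. Of 12 tested droplet proteins outside the set 0 were higher and 0 lower by limma over all libraries (1 at an unadjusted p under 0.05), with a median log2 change of -0.19, against 0.00 for all genes tested. Of 10 lipases and cofactors 0 were higher and 0 lower (4 at an unadjusted p under 0.05; median -0.18). Of 8 transcription factors that act on droplet genes 0 were higher and 1 was lower (median -0.11). Of all genes tested 5.20% were called, 2.65% lower, and 2891 of 13447 had an unadjusted p under 0.05. The lower one was Creb3l3, a membrane-bound liver factor of the fasting response that was at 97.7, 125, 88.7, 60.5, 77.0 and 91.4 FPKM in Rspo2-AAV 1, 2, 4, 5, 6 and 7, against 162, 147, 123, 147, 129.6 and 131 FPKM in Control 1 to 6. The groups met only where Rspo2-AAV 2 passed Control 3. Its log2 change was -0.66 ± 0.16 (adjusted p = 0.0311), a call kept in 4 of 12 fits with a library left out (adjusted p 0.00643 to 0.0780) and lost without both Rspo2-AAV 4 and 5 (adjusted p = 0.123).

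**Figure D4:**
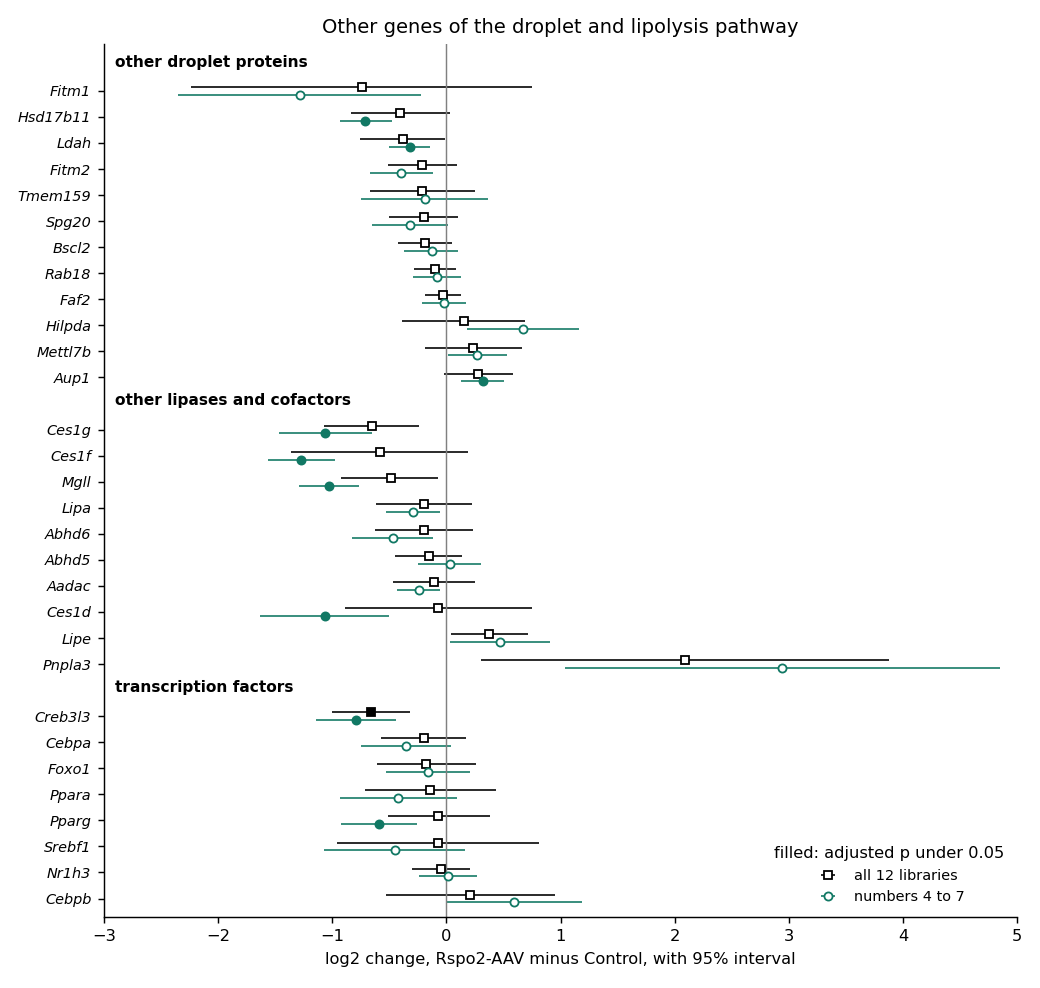
Log2 change of the tested genes of the 3 other lists, Rspo2-AAV minus Control, with 95% intervals, over all 12 libraries (black squares) and within numbers 4 to 7 (green circles); filled symbols have an adjusted p under 0.05. Creb3l3 at -0.66 is the one filled square, and 9 circles are filled.

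Apart from Creb3l3, the genes named from these lists for their abundance did not pass the test over all libraries. Mettl7b, a droplet-bound methyltransferase-like protein, was at 624 ± 145 FPKM in Rspo2-AAV and 529 ± 119 in Control livers (log2 change 0.23 ± 0.20). Rab18, a small GTPase of the droplet surface, was at 37.7 ± 2.81 FPKM in Rspo2-AAV and 40.5 ± 2.44 in Control livers (log2 change -0.10 ± 0.09). Fitm1, which partitions triglyceride into droplets, spread from 4.90 to 57.5 FPKM in Rspo2-AAV and from 4.68 to 65.4 in Control livers, so its 95% interval of -2.24 to 0.75 was wide. Among the lipases, Lipa, the lysosomal acid lipase, was at 62.7 ± 13.4 FPKM in Rspo2-AAV and 72.2 ± 18.1 in Control livers, and Aadac, an esterase of the endoplasmic reticulum, at 241 ± 34.5 in Rspo2-AAV and 264 ± 61.9 in Control livers. The carboxylesterases Ces1d and Ces1f had log2 changes of -0.07 ± 0.38 and -0.58 ± 0.36, and reads may be split between near-identical Ces1 copies. Cebpa, Cebpb, Srebf1 and Nr1h3 had log2 changes of -0.20 ± 0.17, 0.21 ± 0.34, -0.07 ± 0.41 and -0.05 ± 0.12.

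Within numbers 4 to 7 more of these genes were called. Of the droplet proteins 1 was higher and 2 were lower, of the lipases 0 were higher and 4 lower, and of the factors 0 were higher and 2 lower, against 13.3% of all genes called there and 6.92% lower. Aside from Hsd17b11, Ces1d, Ces1f and Creb3l3, the names that follow were chosen after their values were seen. Mgll, which cleaves monoglycerides at the end of lipolysis, stood at 24.2 to 31.7 FPKM in Rspo2-AAV 4 to 7 and at 54.8 to 62.3 in Control 4 to 6 (log2 change -1.03 ± 0.11, adjusted p = 0.00266). In numbers 1 to 3 Mgll was at 39.4 and 42.7 FPKM in the Rspo2-AAV and 33.4 to 39.8 in the Control libraries. Its interaction was -1.24 ± 0.20 (adjusted p = 0.0421), which was kept in 3 of 12 fits with a library left out and lost with TPM scaling (adjusted p = 0.407). Ces1d in numbers 1 to 3 was at 202 and 239.6 FPKM in the Rspo2-AAV and 67.2 to 129 in the Control libraries, while in numbers 4 to 7 it was at 62.9 to 128 in the Rspo2-AAV and 175 to 220.3 in the Control libraries. The Ces1d interaction did not pass (-2.40 ± 0.43, adjusted p = 0.0576). The other calls within numbers 4 to 7 were Aup1 (higher) and Hsd17b11, Ldah, Ces1f, Ces1g, Creb3l3 and Pparg (lower). Pnpla3, a close relative of ATGL on liver droplets, ran from 0.168 to 33.2 FPKM in Rspo2-AAV and from 0.141 to 1.18 in Control livers. Its 4 highest libraries were Rspo2-AAV 7, 6, 5 and 4 (33.2, 13.5, 6.03 and 1.84 FPKM), and the log2 change of 2.09 ± 0.83 did not pass (adjusted p = 0.163). It was 2.94 ± 0.82 within numbers 4 to 7 (adjusted p = 0.0542) and passed among the 9 libraries with Xist under 1 FPKM (3.28 ± 0.66, adjusted p = 0.0113). Pnpla3 was the 1 lipase gene called higher in those 9 libraries, beside 4 called lower, against 12.8% of all genes called there and 6.75% lower.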

How the data were processed

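The deposited values are FPKM for 54532 genes in 12 libraries, made by the authors, with 1 column per sample. The submitters' processing notes name DESeq2 1.20.0, featureCounts 1.5.0-p3 and HISAT2 2.0.5 and the build GRCm38, without roles. Per the labels' protocols, poly-T purified RNA of samples with an RNA integrity number above 8 was sequenced, and the text names library chemistry with and without strand marking. Multiplying FPKM by gene length recovered whole reads for 100.0% of positive values within 0.01 reads.

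The test was limma 3.58.1 in R 4.3.3 (trend) on log2(FPKM + 0.5), a scale that understates the changes of low genes, over the 13447 genes whose mean reached 0.5 FPKM, with Benjamini-Hochberg adjustment. Count models were not run, since the deposited unit is FPKM, so limma-voom on those reads served as the count-based alternative. The fit was tested on simulated data. Cidea, under the filter, had an exact permutation test.

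The members and the gene lists were chosen with earlier results of these data known. By a fixed rule the text names all members and, from each other list, every gene called over all libraries and the 4 uncalled genes with the highest mean. Outside that rule, Mgll, Pnpla3, Aup1, Ldah, Ces1g and Pparg were named after their values were seen. Other alternatives were the pseudocount, the filter, TPM scaling, a replicate block, a term for the number set, subsets of libraries and each library left out. Symbols and positions are those of the deposited table, and exon overlaps come from GENCODE M21.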

Additional observations from a re-analysis of the deposited data

Results flagged for a closer look

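In 46 groups of 6 libraries examined for a sample far from the others, 2 samples stood apart, where chance flags about 1 in 20 groups. G0s2 was at 382 FPKM in Rspo2-AAV 2, against 64.6 to 135 in the other 5 Rspo2-AAV libraries. Nr1h3, which encodes the sterol receptor LXR alpha, was at 70.5 FPKM in Control 1, against 47.1 to 52.9 in the other 5 Control libraries. The Plin4 difference between Rspo2-AAV and Control libraries was not the same in the number sets (log2 -3.57 ± 0.61, SE, numbers 4 to 7 minus numbers 1 to 3, limma interaction, adjusted p = 0.0473). Plin4 was higher in 2 of 2 Rspo2-AAV libraries of the lower numbers than in any Control library there. It was lower in 4 of 4 of the higher numbers. Rspo2-AAV 1 and 2 had Xist above 1 FPKM and the lowest Rspo2 of their group, and of the Control libraries only Control 3 had such Xist. Number set, Xist and Rspo2 level therefore cannot be told apart here. The number sets were drawn from these data. The call was lost in 9 of 12 fits with a library left out (adjusted p up to 0.194), with limma-voom (0.0680), with a pseudocount of 0.1 (0.0989), at a mean of at least 1 FPKM (0.0601) and without a filter (0.0663).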

How the results depend on the processing

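The call of Hsd17b13 held under every alternative run except within numbers 1 to 3 (-3.04, adjusted p = 0.216). Over all 12 libraries no other member was called with another pseudocount, filter, scaling or limma-voom. The count of 699 called genes became 411 without a filter, 382 with TPM scaling, 237 without Rspo2-AAV 4 and 5, 1784 within numbers 4 to 7, 0 within numbers 1 to 3, 1715 with Xist under 1 FPKM and 332 to 913 with 1 library left out. Called members numbered 3 within numbers 4 to 7, 0 within numbers 1 to 3, 3 with Xist under 1 FPKM and 1 to 2 with 1 library left out, by limma throughout. Libraries that share a number were not closely alike across the groups. Their correlations of deviations were -0.25, 0.05, 0.08, 0.09 and 0.16 for numbers 1, 2, 4, 5 and 6. The best Control partners were 3, 1, 4, 6 and 5, the same number only for 4 but the same number set each time. Low correlations cannot show that the samples were unpaired. With a replicate block 297 genes (2.21%) and 2 members (Hsd17b13 and Cidec) were called, 0 transcription factors, and Ces1d had 0.13.

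Droplet proteins called numbered 3 within numbers 4 to 7, 1 with Xist under 1 FPKM and 0 to 1 with 1 library left out, and lipases 4, 5 (Pnpla3 higher, 4 lower) and 0 to 2 in the same order. Transcription factors numbered 2 within numbers 4 to 7, 0 within numbers 1 to 3, without a filter and without Rspo2-AAV 4 and 5, and 0 to 1 with 1 library left out. Of all genes 13.3% were called within numbers 4 to 7 and 12.8% with Xist under 1 FPKM. The 33 interaction calls became 2 with limma-voom, 13 at a mean of at least 1 FPKM, 81 without a filter, 3 with a pseudocount of 0.1 and 0 to 140 with 1 library left out. Where Rspo2-AAV 1 or 2 was left out, the lone remaining library of its arm was assumed to vary like the others.

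Uncalled changes turned sign as follows. Plin3 had 0.00 with TPM scaling, 0.22 within numbers 4 to 7, 0.09 with Xist under 1 FPKM and 0.01 without Rspo2-AAV 4 and 5. Plin4 had -1.38 and -0.59, and G0s2 -0.36 and -0.40, within numbers 4 to 7 and with Xist under 1 FPKM. Within numbers 1 to 3, Hsd17b11 had 0.20, Aadac 0.04, Ces1d 1.34, Ces1f 0.14, Cebpa 0.02 and Cebpb -0.09. Nr1h3 had 0.01 within numbers 4 to 7 and 0.04 without Rspo2-AAV 4 and 5. With 1 library left out the changes ran over -0.12 to 0.09 for Plin3, -0.28 to 0.29 for Plin4, -0.18 to 0.33 for G0s2, -0.26 to 0.13 for Ces1d, -0.01 to 0.37 for Cebpb, -0.36 to 0.13 for Srebf1 and -0.08 to 0.04 for Nr1h3. The causes were not tested. Depth limits Cidea, where 7 reads in the Rspo2-AAV and 47 in the Control libraries leave any ratio imprecise.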
